A study of Rattus norvegicus with 24 samples.

Results

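Atf4, Atf3, Atf5, Cebpb and Creb3l1 encode 5 stress-response transcription factors of the basic leucine zipper (bZIP) class. Their count rows were followed through all 6 conditions of an RNA-seq experiment on primary rat oligodendrocyte precursor cells (OPCs) and the oligodendrocytes (OLs) made from them. They are 5 of the 32883 genes counted in 22 of the 24 libraries. All 5 were chosen because they stand in the study's list of genes changed in OLs by dolutegravir (DTG), an HIV integrase inhibitor, so their values in that comparison are given as a description without a test. OPCs were kept for 24 hours in proliferation medium and were untreated, given the solvent dimethyl sulfoxide (DMSO, 0.04%) or given 8 µM DTG. OLs had the same 24 hours of proliferation, then 72 hours in differentiation medium, and each treatment ran through both stages. Each condition had 4 libraries, and the paper takes each replicate from cells of a separate litter. The model is limited to cultured cells of this lineage and to 1 dose of DTG.

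Between 13241279 and 18499994 counts fell on genes in a library (median 15377822). Replicate 3 of untreated OPCs and of untreated OLs was counted on another gene table, in which the last exon of chromosome 1 ends at 260398790 and not at 282724300, so the build of these 2 libraries is not settled by the label Rnor_6.0. Levels and tests therefore use replicates 1, 2 and 4 of these groups. Levels are CPM (counts scaled to a library of fixed size), computed over 22 libraries with edgeR's TMM factors. The cell types were checked on those markers that could be named. These names come from the study's own lists of changed genes, Mbp, Mog and Enpp6 from that for DTG in OLs and the others from that for DMSO-treated OPCs and OLs, so their levels are a description and their direction in those comparisons is fixed by the naming. Mean Pdgfra and Cspg4, markers of precursors, were 611 and 259 CPM in DMSO-treated OPCs against 184 and 46.1 CPM in DMSO-treated OLs, and mean Mbp, a myelin gene, was 220.2 against 8333 CPM. Mog and Enpp6, the other named markers of OLs, were also higher in OLs. In DTG-treated OLs, Mbp averaged 3166 CPM, Mog 22.4 CPM against 45.1 with DMSO, and Enpp6 43.8 CPM against 92.4. Of 7 markers of microglia and 4 of neurons, only Cd68 and Snap25 could be named, and of 5 markers of astrocytes and 3 of fibroblasts and vessels none. Mean Cd68 lay between 0.261 and 0.431 CPM in the 3 groups of OLs and between 1.37 and 2.09 CPM in the 3 groups of OPCs, and mean Snap25 between 0.503 and 0.939 CPM in OLs and 6.72 and 9.19 CPM in OPCs. Their part in the results was not tested. In these bulk samples, fewer cells of a type and less RNA per cell cannot be told apart.

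In the integrated stress response, kinases that sense amino acid shortage, misfolded protein in the endoplasmic reticulum, viral RNA or lack of heme phosphorylate the translation factor eIF2α. General translation then falls while the ATF4 message is translated more, so ATF4 protein can rise without a change in its mRNA. ATF4 pairs with other bZIP proteins, C/EBPβ among them, and turns on genes of amino acid synthesis and transport. ATF3 and ATF5 act downstream of it or beside it, and ATF5 is also known for its part in the response to mitochondrial stress. CREB3L1 (also called OASIS) sits in the membrane of the endoplasmic reticulum and is released by proteolysis. Oligodendrocytes make large amounts of membrane and myelin protein, and this pathway is studied in them for its role in demyelinating disease.

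Positions in the table of 22 libraries are on the build Rnor_6.0. Atf4 lies at chr7:121480723-121482772 on the plus strand, Atf3 at chr13:109817728-109849632 on the minus strand and Atf5 at chr1:100808241-100810522 on the minus strand. Cebpb lies at chr3:164424515-164425910 on the plus strand, with an exonic length equal to its span of 1396 bases, and Creb3l1 at chr3:80892435-80933283 on the minus strand. No other gene of the table overlaps any of the 5.

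Promoters are shown because these genes were all higher in DTG-treated OLs. RefSeq windows on the build GRCr8 matched 4 of the 5 genes. The window of Atf5 lies inside the span of the gene, and the 250 bases before the start of Atf4, Cebpb and Creb3l1 are printed. The window of Atf4 is chr7:113684431-113684680 (plus strand), that of Cebpb chr3:176816755-176817004 (plus strand) and that of Creb3l1 chr3:98449105-98449354 (minus strand). Capitals mark matches, on either strand, to 5 motifs. The C/EBP-ATF response element (CARE) was searched as TGATGNAA and the cyclic AMP response element (CRE) as TGACGTCA. The half-site of the CRE, which a full CRE also holds, was searched as TGACG. An E-box was searched for with the letters CACGTG, and the TATA box of many promoters with TATAAA.
Atf4: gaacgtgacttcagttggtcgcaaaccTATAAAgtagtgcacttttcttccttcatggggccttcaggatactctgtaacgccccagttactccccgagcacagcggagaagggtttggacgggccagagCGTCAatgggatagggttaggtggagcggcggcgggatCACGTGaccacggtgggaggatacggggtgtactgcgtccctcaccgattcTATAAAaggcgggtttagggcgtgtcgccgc
Cebpb: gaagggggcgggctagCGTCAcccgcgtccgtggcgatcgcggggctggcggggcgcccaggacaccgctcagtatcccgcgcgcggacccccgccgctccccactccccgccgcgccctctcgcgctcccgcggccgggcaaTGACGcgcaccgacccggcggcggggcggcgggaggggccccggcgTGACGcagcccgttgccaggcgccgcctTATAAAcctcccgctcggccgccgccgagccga
Creb3l1: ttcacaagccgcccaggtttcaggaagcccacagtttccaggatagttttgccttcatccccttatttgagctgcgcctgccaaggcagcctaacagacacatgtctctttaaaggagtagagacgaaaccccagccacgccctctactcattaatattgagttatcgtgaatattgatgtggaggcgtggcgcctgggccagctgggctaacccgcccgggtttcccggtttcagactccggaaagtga

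The Cebpb window holds TGACG at 3 places, at positions -234, -107 and -61 from the start, and a TATA box at -33. In the Atf4 window, TGACG occurs once, at -120, CACGTG at -82, and TATAAA at -223 and -31. The Creb3l1 window holds none of the 5 motifs, and no CARE or full CRE occurs in these 3 windows. Of 33469 RefSeq windows of this length, 18.2% hold TGACG, 5.59% CACGTG, 12.9% TATAAA, 3.4% TGATGNAA and 1.59% TGACGTCA. The windows differ in base composition, with 57.2% G and C for Atf4, 80% for Cebpb and 53.2% for Creb3l1, against a median of 51.2%. A match to these letters is a description of the sequence and not a measured site.

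Atf4, the central factor of the response, was present at 113 CPM or more in all 22 libraries. In OLs its levels for replicates 1, 2, 3 and 4 were 145, 143, 185 and 176 CPM with DMSO and 348, 272, 351 and 442 CPM with DTG. Untreated OLs had 142, 134 and 240.4 CPM in replicates 1, 2 and 4. Every DTG-treated library lay above every other OL library, and replicate 4 was the highest of the untreated and of the DTG-treated OLs. In OPCs the levels were 155, 152, 154 and 113 CPM with DMSO, 187, 163, 173 and 150.3 CPM with DTG, and 145, 171 and 120.2 CPM without treatment. Here replicate 4 was the lowest library of all 3 groups. The group means ran from 143 ± 20.3 CPM (SD, n = 4) in DMSO-treated OPCs through 145, 162, 168 and 172 CPM in untreated OPCs, DMSO-treated OLs, DTG-treated OPCs and untreated OLs to 353 ± 69.5 CPM (n = 4) in DTG-treated OLs. Only the last step in this order was free of overlap between neighboring groups.

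Atf3, an immediate stress-induced factor that represses or activates its targets, was the gene of the 5 with the fewest counts. OPC libraries held between 6 and 24 counts of it, so that counting error is large there, and OL libraries between 24 and 163. With DMSO, OLs had 2.21, 2.19, 3.15 and 3.08 CPM in replicates 1 to 4, and with DTG 7.45, 12.6, 11.8 and 9.83 CPM. Untreated OLs had 2.26, 2.01 and 3.94 CPM. The lowest DTG-treated OL library was above the highest of the other OLs. OPCs had 0.375, 0.887, 0.839 and 0.497 CPM with DMSO, 1.02, 0.828, 1.32 and 0.557 CPM with DTG, and 0.779, 0.624 and 1.33 CPM without treatment. The 3 groups of OPCs overlapped one another and lay below all OLs, the DMSO-treated and untreated OLs overlapped, and DTG-treated OLs stood apart at 10.4 ± 2.29 CPM (SD, n = 4).

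For Atf5, OPCs had 45.2, 79.8, 53.2 and 117 CPM with DMSO, 48.2, 49.5, 63.0 and 90.4 CPM with DTG and 51.5, 73.3 and 105 CPM without treatment, with replicate 4 the highest in each of the 3 groups. In OLs, levels were 169, 277, 506 and 366 CPM with DMSO and 155, 279 and 207 CPM without treatment, all above the OPC libraries. DTG-treated OLs had 896, 1004, 1075 and 619 CPM, and the lowest of these, replicate 4, was above the highest DMSO-treated library. Mean levels were 62.8 ± 19.6 CPM (SD, n = 4) in DTG-treated OPCs, at the low end, and 898 ± 201 CPM (SD, n = 4) in DTG-treated OLs. The 3 OPC groups overlapped, as did the untreated and DMSO-treated OLs, while the steps from OPCs to OLs and from these to DTG-treated OLs had no overlap.

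Cebpb encodes C/EBPβ, a partner of ATF4 that also acts in adipocytes and in inflammation. With DMSO, OLs had 4.62, 4.24, 5.01 and 6.59 CPM, and with DTG 12.8, 10.0, 21.97 and 5.73 CPM. Untreated OLs had 5.06, 3.44 and 3.60 CPM. Replicate 4 of the DTG-treated OLs lay below replicate 4 of the DMSO-treated OLs, while the other 3 lay above all control OLs. Levels in OPCs were 5.82, 11.4, 9.04 and 10.6 CPM with DMSO, 6.70, 6.23, 5.46 and 12.03 CPM with DTG and 5.01, 11.05 and 7.11 CPM without treatment. Group means ran from 4.03 ± 0.893 CPM (SD, n = 3) in untreated OLs to 12.6 ± 6.87 CPM (SD, n = 4) in DTG-treated OLs, with the 3 OPC groups between them, and each group overlapped the next.

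Creb3l1, the membrane-bound member, followed the order of Atf5. Its levels in OLs were 26.1, 26.7, 31.3 and 37.1 CPM with DMSO, 30.0, 22.9 and 27.3 CPM without treatment and 81.3, 75.7, 79.5 and 54.3 CPM with DTG. All DTG-treated libraries were above the other OLs, and replicate 4 was again the lowest of them. OPCs had 14.7, 18.4, 12.1 and 23.9 CPM with DMSO, 14.6, 11.1, 12.7 and 19.5 CPM with DTG, and 15.7, 14.7 and 22.9 CPM without treatment, with replicate 4 the highest of each group. Means ranged from 14.5 ± 3.63 CPM (SD, n = 4) in DTG-treated OPCs to 72.7 ± 12.5 CPM (SD, n = 4) in DTG-treated OLs. The highest untreated OPC library, at 22.93 CPM, was just above the lowest untreated OL library, at 22.89 CPM, so that only the step to DTG-treated OLs had no overlap between neighbors.

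**Figure D1:**
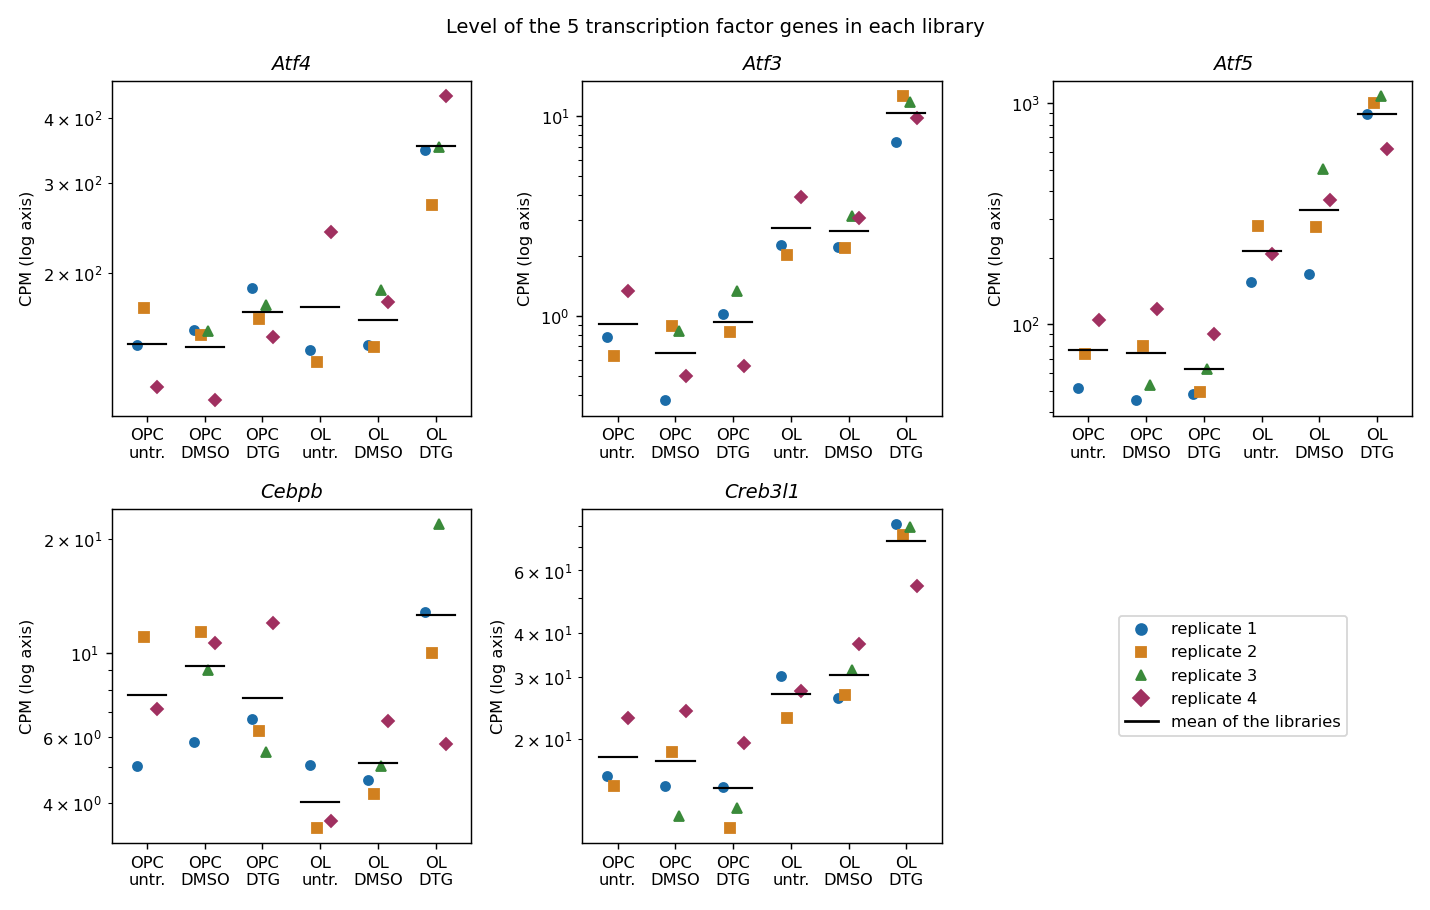
Level of each gene (CPM, log axis) in the 22 libraries counted on the common gene table, by group, with a symbol per replicate and a bar at the group mean. DTG-treated OLs lie above all other groups for Atf4, Atf3, Atf5 and Creb3l1, whereas for Cebpb replicate 4 lies at 5.73 CPM, among the control OLs.

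Per kilobase of exon, the scale on which genes can be compared, Atf5 had the highest mean of the 5 in each group of OLs. This holds for the exonic lengths of the common table, 1030 bases for Atf5 and 1940 for Atf4. Its mean was 872 CPM per kilobase in DTG-treated OLs and 320 in DMSO-treated OLs, against 182 and 83.7 for Atf4. In OPCs Atf5 had 71.6 and Atf4 74.0 with DMSO, 61.0 and 86.8 with DTG, and 74.3 and 74.9 without treatment. Creb3l1 had 27.5 CPM per kilobase in DTG-treated OLs, Cebpb 9.06 and Atf3 3.58. In the other gene table the lengths are 1736 bases for Atf5 and 1478 for Atf4. Untreated replicate 3, counted on it, had 111.4 CPM of Atf5 and 140.2 of Atf4 in OLs, and 16.7 and 162 in OPCs. Per kilobase of that table, Atf5 was thus below Atf4 at both stages. In OPCs this was also the order of the group means on the common table, and in OLs it was not. No library was counted on both tables, so gene table and replicate cannot be told apart here.

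In the comparison that chose the genes, DTG against DMSO in OLs, fitted log2 fold changes were 1.97 for Atf3 (SE 0.24), 1.45 for Atf5 (SE 0.28), 1.30 for Cebpb (SE 0.34), 1.26 for Creb3l1 (SE 0.17) and 1.12 for Atf4 (SE 0.16). Atf4, Atf3, Atf5 and Creb3l1 had no overlap between the groups, as did 7.88% of all genes, and Cebpb overlapped. Over all 12710 genes of this comparison, 0.354% were called higher with DTG, where a gene was called if its log2 fold change exceeded 1 in size and its p, after Benjamini-Hochberg adjustment of edgeR's quasi-likelihood test, was under 0.05. These were 45 genes, with 26 lower, against 16 higher and 1 lower with ERCC scaling. The genes differed in how the replicates contributed. Atf4 had similar ratios in all of them, with DTG to DMSO ratios of 2.40, 1.89, 1.90 and 2.51 in replicates 1 to 4. For Atf5 the ratios were 5.30, 3.63, 2.13 and 1.69, and for Creb3l1 3.11, 2.84, 2.54 and 1.46, so that replicate 1 was the highest and replicate 4 the lowest of both. Atf3 had ratios of 3.38, 5.74, 3.75 and 3.19, and Cebpb of 2.78, 2.37, 4.39 and 0.869. Same-numbered libraries were taken as pairs here, which the sample titles do not state. Across genes, the deviations of paired libraries from their group means correlated at 0.361, 0.364, 0.304 and 0.0328 in replicates 1 to 4. By these ratios, replicate 4 had the highest value for Atf4 and the lowest for the other 4 genes. With both libraries of replicate 4 left out, a choice made after these values were seen, the log2 fold change of Cebpb was 1.72 (SE 0.30), that of Creb3l1 1.51 (SE 0.13), that of Atf5 1.67 (SE 0.33), that of Atf3 2.09 (SE 0.28) and that of Atf4 1.06 (SE 0.16).

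**Figure D2:**
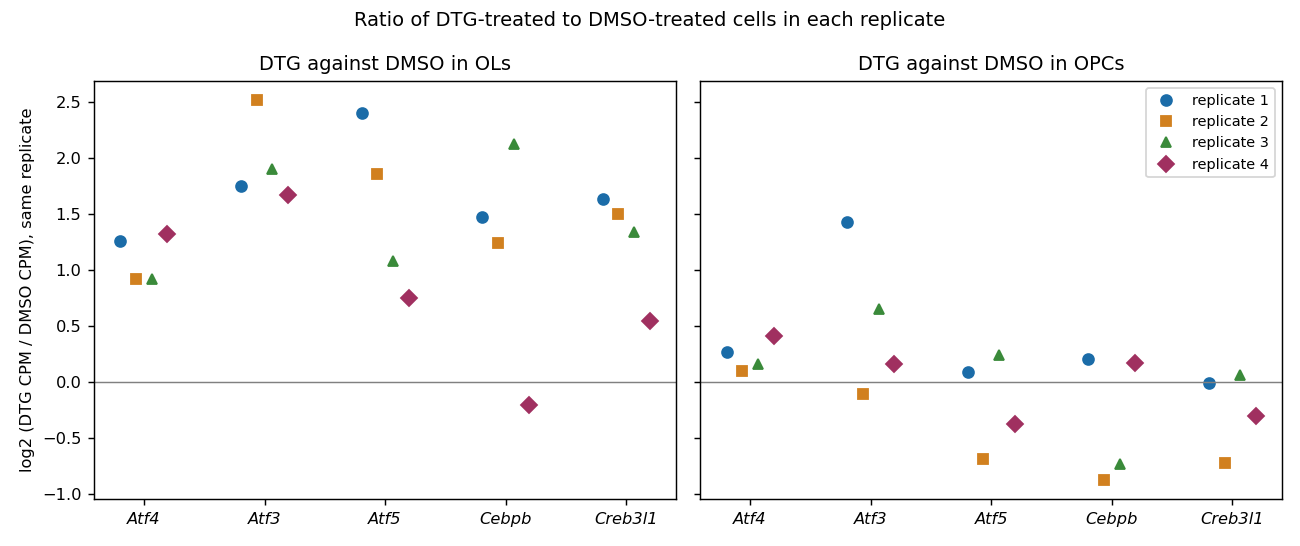
Log2 ratio of CPM in DTG-treated to DMSO-treated cells of the same replicate, for each gene, in OLs (left) and OPCs (right). In OLs 19 of 20 ratios are above 0, the exception being Cebpb in replicate 4, and in OPCs 12 of 20 are.

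Against untreated OLs, which share the DTG-treated libraries with the comparison above, all 5 genes were free of overlap, where 0.272% of 12886 genes were called higher, 0.0698% lower and 0.341% in all, and 12.2% had no overlap. Log2 fold changes were 1.04 for Atf4 (SE 0.24), 1.91 for Atf3 (SE 0.30), 2.07 for Atf5 (SE 0.25), 1.64 for Cebpb (SE 0.41) and 1.44 for Creb3l1 (SE 0.18). That of Cebpb was 1.17 (SE 0.21) with the replicate as a block. DMSO-treated and untreated OLs overlapped for all 5 genes, where 0% of 12893 genes were called and 11.7% had no overlap. The largest difference among these was 0.58 for Atf5 (SE 0.30), and those of the other 4 genes lay between -0.13 and 0.30. With ERCC scaling, where the median of all genes was -0.54, that of Atf5 was -0.08 and the others were also below 0.

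Whether DTG changes the same genes in proliferating OPCs is a question these genes were not selected on. No gene of the 5 was called in DTG-treated against DMSO-treated OPCs, and none of all 13270 genes was (0%) by edgeR or by DESeq2, both with Benjamini-Hochberg adjustment, with 66 and 63 genes at an unadjusted p under 0.05. The count of 66 was 920 with the replicate block, 869 without DMSO-treated OPC replicate 3 and 26 without DMSO-treated OPC replicate 2, with 0 called in each. Atf4 was higher with DTG in 4 of 4 replicates, with a log2 fold change of 0.24 and a 95% interval of -0.13 to 0.60. Atf3 was higher in 3 of 4, with 0.52 (-0.38 to 1.41). The other 3 genes had log2 fold changes of -0.22 for Atf5 (-0.94 to 0.49), -0.27 for Cebpb (-0.97 to 0.43) and -0.25 for Creb3l1 (-0.85 to 0.36), which turned to 0.28, 0.03 and 0.20 when scaled to the ERCC spike-in counts, a scaling that moves the median of all genes from -0.002 to 0.31. They were higher with DTG in 2, 2 and 1 of 4 replicates. All 5 had an adjusted p of 0.906 in edgeR's quasi-likelihood test, and the groups overlapped for each gene. All 5 intervals hold 0. The difference between the stages was not tested because the OL libraries chose the genes. Against untreated OPCs, which share these DTG-treated libraries, 0 of 13388 genes were called and 1766 had an unadjusted p under 0.05, but 805 were called, 801 of them higher, without DTG-treated OPC replicate 4. The 5 log2 fold changes lay between -0.28 and 0.23. Atf5 and Creb3l1 were lower in 3 of 3 replicates, at -0.27 and -0.28, which turned to 0.37 and 0.34 with ERCC scaling (median of all genes 0.59).

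**Figure D3:**
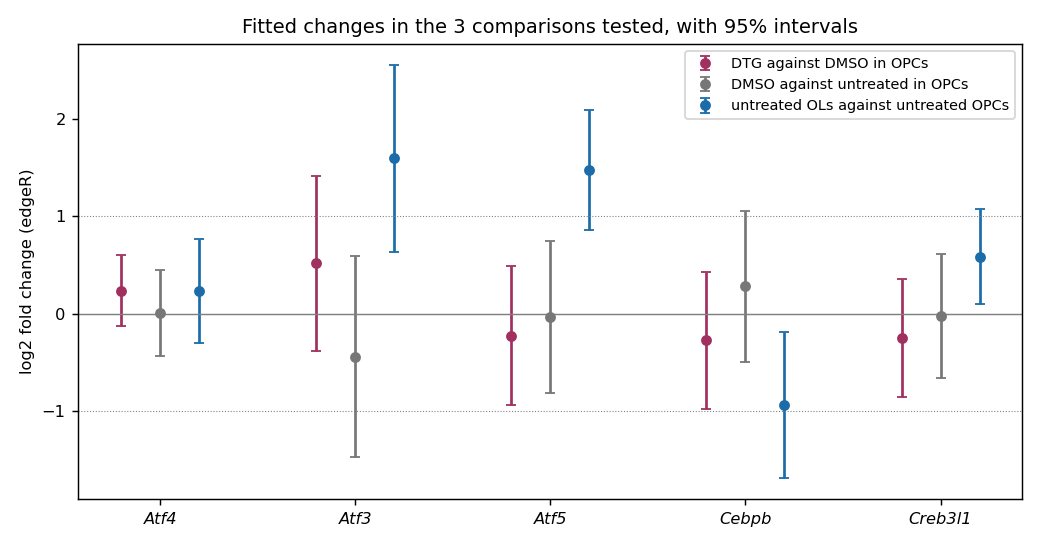
Fitted log2 fold change of each gene with its 95% interval in the 3 comparisons that did not choose the genes, with dotted lines at the fold threshold of 1 in size. The intervals of Atf3 and Atf5 in untreated OLs against untreated OPCs lie above 0, and those of DTG against DMSO in OPCs all hold 0.

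Atf3 and Atf5 were higher after differentiation without treatment, but neither was called with ERCC scaling. In untreated OLs against untreated OPCs, 2 of the 5 genes were called, both higher in OLs, where 22.7% of 13110 genes were called in either direction and 10.9% higher in OLs. The split was 1434 higher to 1540 lower, and 447 to 1348 with ERCC scaling. Atf5 had a log2 fold change of 1.48 (SE 0.28, 95% interval 0.86 to 2.09) and an adjusted p of 0.00238 in edgeR's quasi-likelihood test. For Atf3 these were 1.59 (SE 0.43, 0.63 to 2.55) and, in the same edgeR test, an adjusted p of 0.0156. Both were higher in 3 of 3 replicates, without overlap, as were 25.7% of all genes. Creb3l1 was also higher in 3 of 3, by 0.59 (SE 0.22), with an adjusted p of 0.0587 in edgeR's test, and Cebpb was lower by 0.94 (SE 0.34), with an adjusted p of 0.0504, and higher in 1 of 3 replicates. Atf4 differed by 0.24 (SE 0.24, -0.29 to 0.77), or by -0.17 with ERCC scaling, and was higher in replicate 4 alone.

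The call of Atf3 rested on few counts and on single libraries. Without untreated OPC replicate 1 its log2 fold change was 1.49 with an adjusted p of 0.0542, without untreated OPC replicate 2 it was 1.39 with 0.0511, and without untreated OL replicate 4 it was 1.23 with 0.0743, all in edgeR's quasi-likelihood test. Without untreated OPC replicate 1, Cebpb was called lower in OLs, at -1.18 with an adjusted p of 0.0214 in the same edgeR test. Atf5 stayed called in all 6 fits that left out 1 library. Scaled to the ERCC spike-in counts instead, which shifts the median over all genes from -0.02 to -0.53, neither gene was called, with 0.94 for Atf5 (adjusted p 0.264 in edgeR's test) and 1.27 for Atf3 (0.242). In replicate 3, counted on the other gene table, the untreated OPC and OL libraries had 16.7 and 111.4 CPM of their own totals for Atf5, 0.401 and 2.64 CPM for Atf3, 11.5 and 24.9 CPM for Creb3l1, 6.62 and 4.02 CPM for Cebpb and 162 and 140.2 CPM for Atf4. The exonic length of Atf5 is 1736 bases in that table and 1030 bases in the common table.

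The step from OPCs to OLs can also be given for treated cells. DMSO-treated OLs against DMSO-treated OPCs had log2 fold changes of 2.16 for Atf5 (SE 0.36), 2.01 for Atf3 (SE 0.37), 0.82 for Creb3l1 (SE 0.24), 0.18 for Atf4 (SE 0.18) and -0.84 for Cebpb (SE 0.28), and 3 of 5 genes did not overlap, where 32.3% of genes were called and 44.9% did not overlap. DTG-treated OLs against DTG-treated OPCs had 3.83 for Atf5 (SE 0.27), 3.46 for Atf3 (SE 0.33), 2.32 for Creb3l1 (SE 0.22), 1.05 for Atf4 (SE 0.17) and 0.73 for Cebpb (SE 0.39), and 4 of 5 did not overlap, where 39.3% were called and 52.5% did not overlap. Cebpb was lower in OLs in 4 of 4 replicates with DMSO and higher in 3 of 4 with DTG. These comparisons hold the libraries that chose the genes and carry no test. The median over all genes was -0.12 and -0.11 in them. With ERCC scaling these medians were -1.48 and -1.35, and Creb3l1 and Atf4 turned to -0.42 and -1.30 with DMSO, and Cebpb and Atf4 to -0.58 and -0.14 with DTG.

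The solvent was compared with no treatment in OPCs. DMSO-treated against untreated OPCs had log2 fold changes of 0.01 for Atf4 (SE 0.20), -0.44 for Atf3 (SE 0.46), -0.03 for Atf5 (SE 0.35), 0.28 for Cebpb (SE 0.35) and -0.02 for Creb3l1 (SE 0.28), with Atf5 and Creb3l1 turning to 0.10 and 0.15 under ERCC scaling. All groups overlapped, and each adjusted p was 0.9999 in edgeR's quasi-likelihood test. Of 13244 genes, 0 were called (0%) by this test and by DESeq2, with 78 and 123 at an unadjusted p under 0.05. The count of 78 was 356 with the replicate block, where 4 genes were called, 803 without DMSO-treated OPC replicate 4 and 15 without DMSO-treated OPC replicate 3.

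Genes most like each factor were sought by the Pearson correlation of log2 CPM over the 22 libraries, among 2106 genes with a symbol. These symbols come from the study's lists of changed genes, and the libraries share stages and may share litters, so the values describe these libraries only. The list for DTG in OLs was made from libraries used here. It holds the 5 factors as well as Asns, Stc2, Pck2, Chac1 and Sesn2. Likeness between genes of that list is thus expected from the naming and is no independent evidence. Atf5 and Creb3l1 were alike (r = 0.954), and Atf5 was also among the 3 genes most like Atf3 (r = 0.920). First for both Atf5 (r = 0.964) and Atf3 (r = 0.929) was RGD1309651, followed by Slc25a34, a member of the mitochondrial carrier family (r = 0.954 and 0.923). Next to Creb3l1 after Atf5 came Pck2, the mitochondrial phosphoenolpyruvate carboxykinase (r = 0.932), and Chac1, an enzyme that degrades glutathione (r = 0.925). For Atf4 the first 3 were Asns, asparagine synthetase (r = 0.877), Stc2, a secreted glycoprotein (r = 0.860), and G0s2, an inhibitor of lipolysis (r = 0.833). Cebpb had the weakest likenesses, with Ddit4l2 (r = 0.735), Cdkn1a, an inhibitor of the cell cycle (r = 0.714), and Sesn2, a stress-induced regulator of nutrient signaling (r = 0.713). All these values pool both stages. In the 11 OPC and the 11 OL libraries taken apart, r for Atf5 was 0.850 and 0.901 with Creb3l1, but 0.016 and 0.874 with Atf3. Atf4 had -0.714 and 0.776 with Atf5, and -0.782 and 0.840 with Creb3l1. Cebpb had 0.450 and 0.911 with Creb3l1, 0.640 and 0.814 with Atf5, and -0.309 and 0.778 with Atf3. Over all 22 libraries these were 0.317, 0.185 and 0.101. The OL libraries include the DTG-treated ones on which the factors were chosen, so positive values among OLs are expected from that choice. Whether the likenesses differ between the stages was not tested.

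Known target genes of ATF4 were followed beside the factors. Of 44 listed targets, 16 could be named, and all 16 names come from the study's list of genes changed by DTG in OLs, so the count in that comparison is fixed by the naming and is no independent evidence. There, 13 of 16 were called higher by edgeR's quasi-likelihood test and 16 of 16 had a positive log2 fold change, and DESeq2 called 16 of 16. The largest were Trib3, a pseudokinase that feeds back on ATF4, at 4.08 (SE 0.40), Gdf15, a secreted stress cytokine, at 3.16 (SE 0.33), Slc7a11, the cystine transporter, at 2.48 (SE 0.22), Stc2 at 2.48 (SE 0.35), Chac1 at 2.43 (SE 0.28) and Slc7a3, a transporter of cationic amino acids, at 2.29 (SE 0.47). Not called by edgeR were Slc1a5, a glutamine transporter, at 1.196 (SE 0.28), Aldh1l2, a mitochondrial folate enzyme, at 1.71 (SE 0.41), and Cth, an enzyme of cysteine synthesis, at 1.22 (SE 0.35). Without both libraries of replicate 4, 7 of 16 were called, and 18 genes in all were called higher in place of 45.

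As for Atf5 and Creb3l1, replicate 1 had the largest ratio of DTG to DMSO for all 16 target genes in OLs. The median ratio over the 16 was 6.46 in replicate 1, 2.94 in replicate 2, 2.57 in replicate 3 and 3.30 in replicate 4. Trib3 had 1.17, 1.10, 1.94 and 2.27 CPM with DMSO and 50.7, 17.9, 25.3 and 15.7 CPM with DTG in replicates 1 to 4. For Trib3, DTG-treated OLs were above the controls in each replicate, and replicate 1 was the highest with DTG. This was not so for all targets. Chac1 had 11.4, 28.5, 36.8 and 22.6 CPM with DMSO and 134, 124, 166 and 108 CPM with DTG. Its large ratio in replicate 1 thus went with the lowest DMSO-treated library, and replicate 3 was the highest with DTG.

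In OPCs the naming does not fix the result. With DTG, 0 of 16 targets were called by edgeR's quasi-likelihood test or by DESeq2, and 1 had an unadjusted p under 0.05, namely Trib3. Of the 16, 15 had a positive log2 fold change, where 49.7% of all genes did, and their median was 0.23 against -0.002 over all genes. Some of the 15 lay near 0, such as Eif4ebp1 at 0.002 and Slc7a5 at 0.013. Genes of 1 pathway in the same libraries are not independent of one another, and this count was not tested. Trib3 had 0.375, 0.478, 0.395 and 1.14 CPM with DMSO and 1.98, 1.16, 0.772 and 1.89 CPM with DTG, from 6 to 39 counts, with a log2 fold change of 1.31 (SE 0.47). It was higher with DTG in each replicate, and the groups overlapped. Slc7a11 had 5.82, 2.12, 9.33 and 3.90 CPM with DMSO and 12.8, 13.8, 7.11 and 5.07 CPM with DTG (log2 fold change 0.87, SE 0.47), and was lower with DTG in replicate 3. Cth differed by 0.56 (SE 0.34) and was higher in 4 of 4 replicates. By replicate, 16, 7, 14 and 14 of the 16 genes were higher with DTG, so replicate 2 stood apart.

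**Figure D4:**
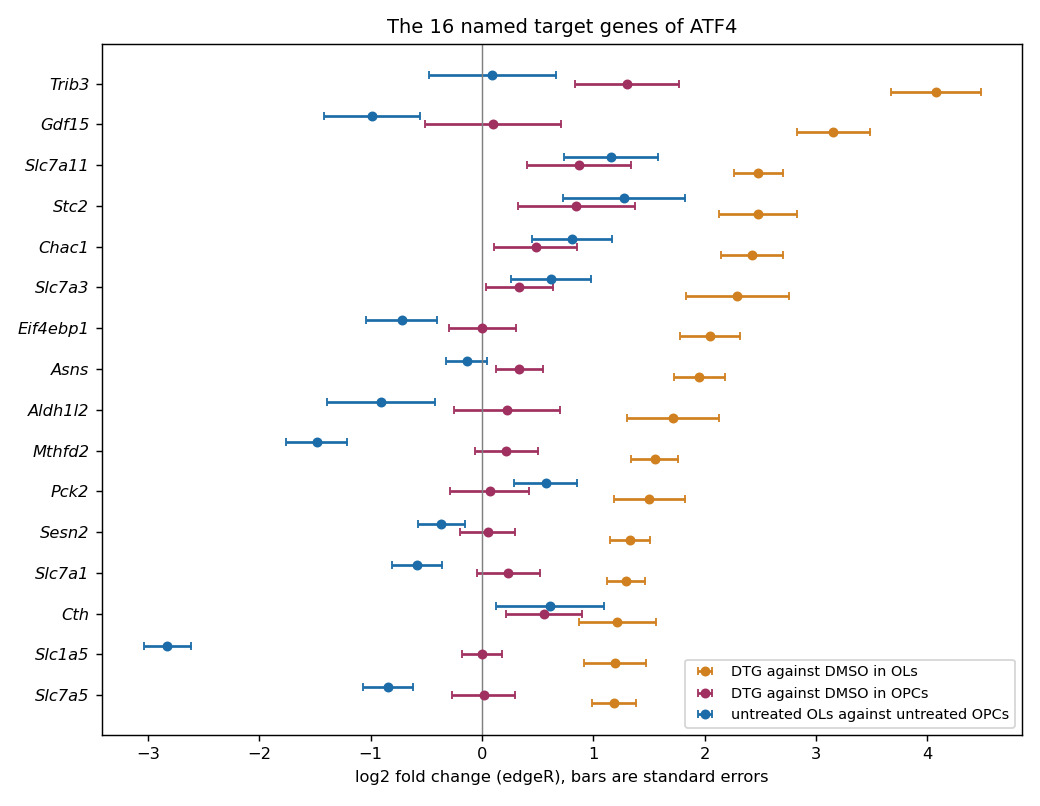
Log2 fold change of the 16 named target genes of ATF4, with standard errors as bars, in 3 comparisons, ordered by the value for DTG against DMSO in OLs. Values for DTG in OPCs lie between -0.002 and 1.31, while untreated OLs against untreated OPCs lie on both sides of 0.

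During differentiation without treatment the targets had values on both sides of 0. In untreated OLs against untreated OPCs, 2 of 16 were called, both lower in OLs, where 11.7% of all genes were called lower, and 7 of 16 had a positive log2 fold change, with a median of -0.25 against -0.02 over all genes. Slc1a5 fell from 75.8, 50.3 and 60.3 CPM in untreated OPCs to 9.64, 7.71 and 8.98 CPM in untreated OLs, by 2.83 on the log2 scale (SE 0.21). Mthfd2, a mitochondrial folate enzyme, fell from 56.8, 28.3 and 44.7 CPM to 14.0, 13.1 and 19.5 CPM, by 1.49 on the log2 scale (SE 0.27). Neither gene overlapped between the stages, and both also stand in the study's list for DMSO-treated OPCs and OLs. Slc7a5, an amino acid transporter, had a log2 fold change of -0.85 (SE 0.23), under the fold threshold, Slc7a11 one of 1.16 (SE 0.42) and Slc7a1 one of -0.59 (SE 0.22), neither of which passed the test. With all libraries on shared identifiers 5 targets were called, without the filter on low counts 4, without untreated OL replicate 2 it was 6 and without untreated OL replicate 1 it was 4.

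Of other bZIP genes, 4 of 33 listed could be named, none from the list of genes changed by DTG and 4 of 4 from that for DMSO-treated OPCs and OLs, so that a difference between stages is expected from the naming and is no independent evidence. Cebpa, Atf1 and Fosl2 were called lower in untreated OLs than in untreated OPCs, by edgeR's quasi-likelihood test, where 11.7% of all genes were, with log2 fold changes of -2.22 (SE 0.30), -1.11 (SE 0.28) and -1.36 (SE 0.45), and Cebpg had -0.81 (SE 0.16). None was called with DTG in OLs, where Cebpg, a partner of ATF4, had 0.71 (SE 0.18) and Atf1 0.68 (SE 0.23) and 2 of 4 had an unadjusted p under 0.05, while DESeq2 also called 0. As none of these 4 genes stands in the study's list for DTG, made from the same libraries, this lack of calls is no independent evidence. Of 18 chaperones of the endoplasmic reticulum 3 could be named. Sdf2l1, a chaperone component whose name comes from the list of genes changed by DTG, so that its call is fixed by the naming, was called lower with DTG in OLs, by 1.11 on the log2 scale (SE 0.18), while Hsp90b1 had -0.52 (SE 0.16) and Edem1 0.32 (SE 0.22). Eif2s1, which encodes eIF2α and was the only one named of 12 upstream genes, had -0.02 (SE 0.21) with DTG in OLs, and Hspd1, the only one of 6 mitochondrial chaperones and proteases, had 0.13 (SE 0.15). Neither was called. The names of Eif2s1, Hspd1, Hsp90b1 and Edem1 come from the list for DMSO-treated OPCs and OLs. None of them stands in the study's list for DTG, so their lack of calls is no independent evidence either.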

How the data were processed

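RNA of 24 libraries of primary rat cells, 4 in each of 6 conditions, was sequenced after poly(A) enrichment, with ERCC spike-in RNA added. Per the submitters' processing notes, reads were aligned with STAR 2.5.2b to Rnor_6.0 and counted with featureCounts (Subread 1.5.2). The authors deposited whole-number counts per gene and library, without normalization. The gene tables of 2 libraries differ from the other 22, with 21651 identifiers in both and other coordinates, so their build is not settled. ERCC counts (1.06% to 7.19% of a library) stayed out of library sizes.

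Each comparison used the libraries of its 2 groups in R 4.3.3 with edgeR 4.0.16: filterByExpr, TMM scaling, a quasi-likelihood F test without covariates and Benjamini-Hochberg adjustment over all genes tested. Genes were called at a log2 fold change over 1 in size with an adjusted p-value under 0.05. Intervals and p-values measure the spread between these libraries. The test was also run on simulated counts with known changes. DESeq2 1.42.0, DESeq2 size factors, ERCC scaling, no filter, no minimum fold, a replicate block, shared identifiers and leaving out libraries were alternatives. Symbols came from the paper's supplementary tables, lists of changed genes held here in part, which pair 2107 identifiers with a symbol, so lists are given by their named members. Named genes were the 5 factors and, per list and comparison, up to 6 called genes of largest change and up to 3 not called with the smallest adjusted p. For likeness, the 3 genes of highest correlation were taken, with a prior count of 2. The members, lists and tests were chosen with earlier results of these data known.

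Replicate numbers were taken to pair the libraries. The paper takes replicates from independent litters. Library names of 1 number share a prefix that reads as a date, the same for replicates 2 and 3 but for a letter. The sample titles do not say that libraries of 1 number share a litter. The correlation across genes of the deviations of same-numbered libraries from their group means was 0.641, -0.0703, 0.516 and 0.789 for DTG and DMSO in OPCs, 0.361, 0.364, 0.304 and 0.0328 in OLs, 0.731, 0.481 and 0.572 for DMSO-treated and untreated OPCs, and 0.121, 0.0209 and 0.0371 for untreated OLs and OPCs.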

Additional observations from a re-analysis of the deposited data

Results flagged for a closer look

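DMSO-treated OPC replicate 4 stood apart from the other 3 libraries of its group in Atf4, at 113 CPM against 152 to 155 CPM. Its gap to the nearest library was 0.923 of the range of the group, above Dixon's 95% critical value for 4 samples. This was 1 flag among 20 groups of 4 libraries that were examined, and chance flags about 1 in 20. The same replicate was the lowest for Atf4 in untreated and in DTG-treated OPCs.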

How the results depend on the processing

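In DTG-treated against DMSO-treated OPCs and in DMSO-treated against untreated OPCs, 0 of the 5 factors were called under every alternative run. In untreated OLs against untreated OPCs, 2 were called, 0 with ERCC scaling, and 1 to 2 when libraries were left out 1 at a time. ATF4 target genes called there numbered 2, but 4 without the filter on low counts, 5 on shared identifiers with or without the replicate block, and 2 to 6 with 1 library left out. With DTG in OLs, 13 target genes were called higher, 8 with ERCC scaling, 7 without replicate 4 of both groups, 16 with DESeq2 and with the replicate block, and 10 to 14 with 1 library left out. The replicate block changed no call of the 5 factors. Some values near 0 changed sign. With ERCC scaling, DTG in OPCs gave 0.28 for Atf5, 0.025 for Cebpb and 0.20 for Creb3l1, untreated OLs against OPCs gave -0.17 for Atf4, and DMSO against untreated OPCs gave 0.10 for Atf5 and 0.15 for Creb3l1. In the last comparison, Atf4 was -0.0205 with DESeq2 and with its size factors, -0.047 with the replicate block and -0.00067 on shared identifiers with the block. There Atf5 was 0.042 with the block, 0.28 on shared identifiers and 0.47 with both, and Creb3l1 0.10, 0.13 and 0.15. With 1 library left out, Atf5 ran from -0.45 to 0.089 for DTG in OPCs, Atf4 from -0.077 to 0.41 for untreated OLs against OPCs, and in DMSO against untreated OPCs Atf4 ran from -0.11 to 0.10, Atf5 from -0.35 to 0.26 and Creb3l1 from -0.23 to 0.21. The cause of these changes was not tested. Over all genes, calls with DTG in OLs numbered 71, 127 with DESeq2, 168 with the replicate block, 112 without the filter, 108 without a minimum fold, 17 with ERCC scaling, 29 without replicate 4 of both groups and 29 without DMSO-treated OL replicate 2. Untreated OLs against OPCs had 2974 calls, and 1795 with ERCC scaling, and DMSO against untreated OPCs had 4 in place of 0 with the block, and DTG-treated against untreated OPCs had 805 in place of 0 without DTG-treated OPC replicate 4. Depth limits Atf3 most, which had 6 to 24 counts in OPC libraries.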
